A study of Caenorhabditis elegans with 2 samples.

Results

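Insulin, nutrient sensing and longevity genes of the nematode Caenorhabditis elegans were examined for binding of MXL-1, a transcription factor of the Max family. The set held 36 named protein-coding genes of 19973 nuclear ones, and all 36 were matched by symbol to the WBcel235 annotation. They were listed by name for their known roles. The listing rule used no peak value, but the list was made with earlier results of these data known. Whole hermaphrodite worms of strain OP537 were collected as young adults, 67 hours after starved L1 larvae had been synchronised. The strain carries the transgene wgIs537, in which MXL-1 bears a C-terminal GFP and FLAG tag, and the mutation unc-119(tm4063). Sonicated chromatin was pulled down through the GFP tag and sequenced (ChIP-seq) in 2 biological replicates of 1 group. Both replicates carry tag and mutation, so no condition could be compared, and whole animals do not show in which tissue a site was bound.

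In the worm, insulin-like peptides act on the receptor DAF-2, whose kinase cascade keeps the FOXO factor DAF-16 out of the nucleus, and weaker signalling lengthens life. TOR and AMPK kinases sense amino acids and energy, and steroid hormones made by DAF-9 and DAF-36 act through the nuclear receptor DAF-12. MXL-1 forms dimers with MDL-1 that bind the E-box CACGTG, and loss of either protein is known to lengthen life.

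None of the 36 genes held an MXL-1 summit of the thresholded list in its window. A window ran from 2000 bp upstream of any transcript start to the gene end, and the thresholded list is the set of 557 peaks, 550 of them nuclear, that the authors kept after testing agreement between replicates. The 0 of 36 genes allow a share of up to 8.33% by the limit of 3 counts, or up to 9.74% by the exact Clopper-Pearson 95% interval, against 2.71% of all protein-coding genes with such a summit. At that share 0.977 members would have one. Members' windows are longer than most, and at the density of all windows they would hold 2.006 such summits. That density, 0.5327 per 100 kb, lies below the members' upper limit of 0.9794 (exact Poisson 95% interval). A count of 0 is thus no result about these genes. When summits within 250 bp of a small RNA gene (rRNA, tRNA, snRNA or snoRNA) were left out, the count was again 0 of 36, against 1.24% of all genes. In the longer pooled list, called on both replicates together, 2 members (5.56%), skn-1 and pdk-1, held one of the 1114 strongest peaks, against 5.65% of all genes. All other summits described at members below are weaker entries of that list, which holds peaks and background and whose entries need not be bound sites.

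**Figure D1:**
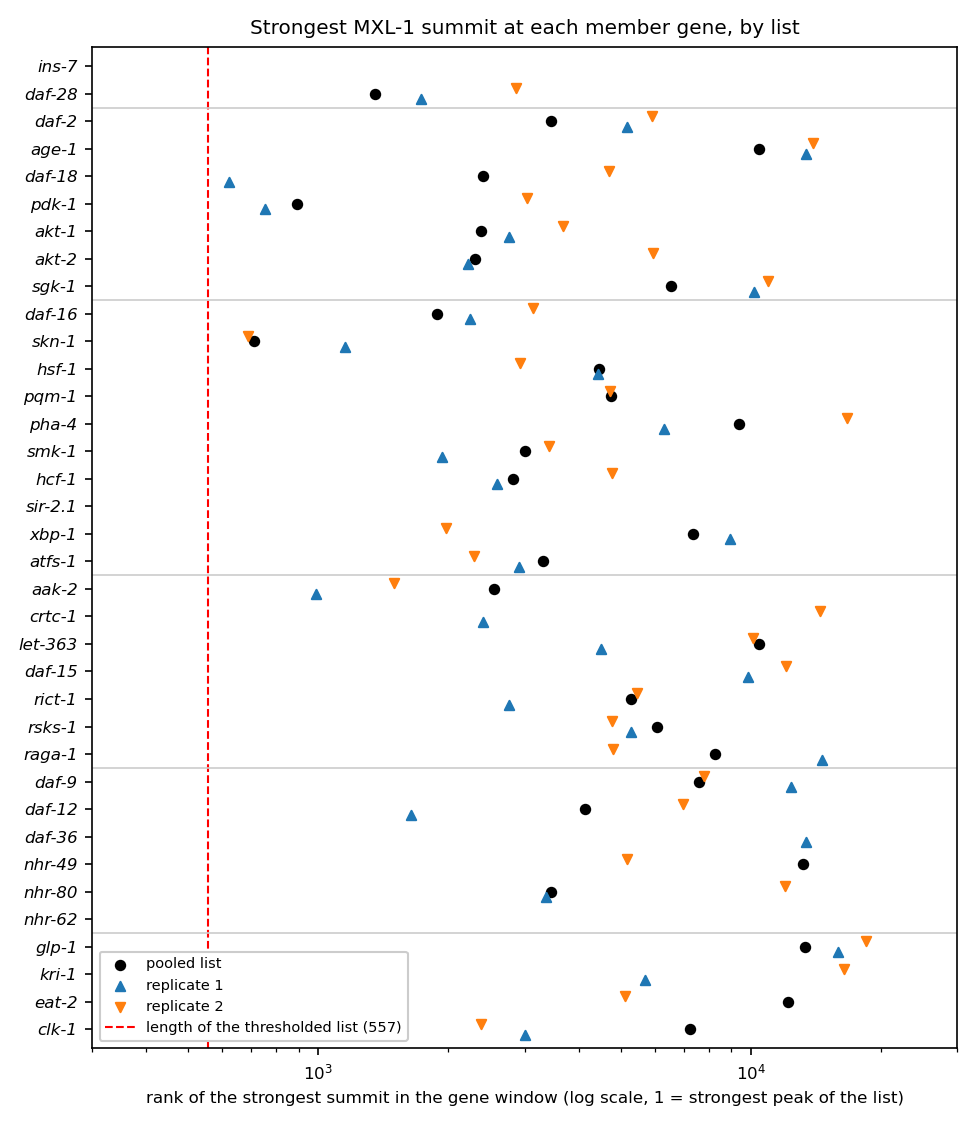
Rank of the strongest summit in each member's window (log scale, rank 1 is the strongest peak of a list) in the pooled list (black circles), replicate 1 (blue triangles pointing up) and replicate 2 (orange triangles pointing down). Genes run down the page by role, a gene without a mark has no summit in that list, and no mark lies left of the dashed line at rank 557. The best ranks are 710 for skn-1 in the pooled list, 620 for daf-18 in replicate 1 and 689 for skn-1 in replicate 2.

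The sequences below show what lay under the strongest pooled summits that members held, those of skn-1, pdk-1 and daf-28. They are joined by the summit at aak-2 that had CACGTG, and by the thresholded summit just past the end of xbp-1. They were chosen after their values were seen, run 5' to 3' on the strand of the gene, and reach 100 bp either side of the summit. That of xbp-1 starts at the first base after the gene. Capitals mark every match to the general E-box CANNTG, which reads the same on both strands, and all bases are from the RefSeq genome on WBcel235 (ce11).
skn-1, chrIV:5660464-5660664, minus strand: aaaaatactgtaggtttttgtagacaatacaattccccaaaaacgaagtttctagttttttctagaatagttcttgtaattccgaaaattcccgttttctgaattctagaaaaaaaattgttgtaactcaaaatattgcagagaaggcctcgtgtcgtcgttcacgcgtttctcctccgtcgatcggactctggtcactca
pdk-1, chrX:1323113-1323313, plus strand: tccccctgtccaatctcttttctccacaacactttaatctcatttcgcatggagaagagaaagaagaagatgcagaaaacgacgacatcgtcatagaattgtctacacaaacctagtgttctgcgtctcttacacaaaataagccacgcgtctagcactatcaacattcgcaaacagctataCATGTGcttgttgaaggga
daf-28, chrV:19815651-19815851, plus strand: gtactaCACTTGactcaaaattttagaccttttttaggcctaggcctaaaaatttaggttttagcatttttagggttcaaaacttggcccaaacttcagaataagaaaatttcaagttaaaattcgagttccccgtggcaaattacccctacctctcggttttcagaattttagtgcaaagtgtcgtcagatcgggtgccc
aak-2, chrX:16796925-16797125, plus strand: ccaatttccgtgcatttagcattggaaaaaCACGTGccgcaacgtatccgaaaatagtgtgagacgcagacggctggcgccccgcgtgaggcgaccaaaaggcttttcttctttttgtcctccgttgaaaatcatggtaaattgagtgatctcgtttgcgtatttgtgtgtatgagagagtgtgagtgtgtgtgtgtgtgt
xbp-1, chrIII:4195359-4195531, plus strand: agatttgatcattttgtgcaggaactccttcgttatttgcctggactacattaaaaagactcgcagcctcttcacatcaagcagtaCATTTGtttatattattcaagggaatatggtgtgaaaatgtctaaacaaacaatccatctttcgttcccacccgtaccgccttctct
The skn-1 window had no CANNTG. That of pdk-1 had 1, CATGTG, 82 bp downstream of the summit, and that of daf-28 had 1, CACTTG, 94 bp upstream. The aak-2 window had its CACGTG 70 bp upstream of the summit, and the xbp-1 window had CATTTG 14 bp downstream. CANNTG is common, with at least 1 match in 55.1% of the windows reaching 100 bp either side of all 14193 nuclear pooled summits.

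Among the insulin-like ligands, daf-28 had a pooled summit and ins-7 had none in any list. Both genes encode peptides that act on DAF-2. The daf-28 summit (WBGene00000920, chromosome V 19815531 to 19815970) lay in an intron, 346 bp downstream of the nearest of its starts. Its signal, the authors' value for a peak on a scale that is not stated, was 49.39 in the pooled list (rank 1353), 25.96 in replicate 1 (rank 1725) and 23.88 in replicate 2 (rank 2859). It was the third strongest of the members' pooled summits by gene, and 6.89% of all protein-coding genes had a stronger one. Among the 37 other genes of the ins family, 13 (35.1%) had a pooled summit, against 48.1% of all genes. A thresholded summit lay at 0 of them, against 2.71% of all genes. Their windows were shorter, with a median of 2643 bp. Their strongest pooled summit, in the 3'UTR of ins-17, had 61.37 pooled (22.97 in replicate 1 and 41.56 in replicate 2).

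All 7 genes of the receptor and kinase cascade had a pooled summit, against 48.1% of all protein-coding genes. Of these 7, 5 had one that was matched in both replicates, against 20.6% of all genes. Matched means that a summit of each replicate lay within 100 bp. The 7 windows were long, 95.46 kb together. Of all genes, 59.7% with windows of 5 to 10 kb and 81.3% with windows over 10 kb had a pooled summit. A replicate peak that overlaps a pooled peak but has its summit farther away is not counted as a match. The strongest was at pdk-1 (WBGene00003965), which encodes the kinase that activates AKT. This summit lay in an intron 1860 bp downstream of a start (X 1322993 to 1323432), with a pooled signal of 57.01 (rank 894). Its replicate signals were 32.56 (rank 752) in replicate 1 and 22.90 (rank 3391) in replicate 2, so the peak ranked better in replicate 1. The other pdk-1 summits, with signals of 28.08, 31.95 and 33.46, had matches in replicate 2 alone, and at the last of them a peak of replicate 1 (14.09) overlapped with its summit 136 bp away.

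The AKT kinase genes each had summits matched in both replicates. At akt-1 a pair of summits 2475 and 2720 bp downstream of a start had pooled signals of 42.26 (23.24 in replicate 1 and 17.44 in replicate 2) and 40.64 (18.27 and 16.98). At akt-2 the pair lay upstream of its single start, by 829 and 622 bp. The pooled signals there were 42.58 (24.45 in replicate 1 and 19.74 in replicate 2) and 28.17 (19.74 and 14.68). All 4 ranked better in replicate 1. The related kinase gene sgk-1 had 1 summit, 66 bp upstream of a start, where the pooled signal was 32.43 (16.36 in replicate 1 and 16.56 in replicate 2). Its ranks of 10198 in replicate 1 and 10982 in replicate 2 lie near the middle of lists of 20313 and 21882 peaks.

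At daf-2, the receptor gene with the longest window of the set (48333 bp), 7 pooled summits lay in introns and the 3'UTR with signals from 27.94 to 38.38, and 4 of them were matched in both replicates. The strongest had 19.74 in replicate 1 (rank 5271) and 15.84 in replicate 2 (rank 12553). In the same cascade daf-18 had 3, and its strongest illustrates how far the replicates could differ. This summit, in a coding exon, had a pooled signal of 42.16 and 34.72 in replicate 1 (rank 620), with no overlapping peak in replicate 2. The start nearest to it, 733 bp away, is that of the neighbouring gene eri-1. The second daf-18 summit (35.52), in the 3'UTR and 102 bp from the eri-1 start, was overlapped by peaks of both replicates. These had 27.31 in replicate 1 (rank 1412) and 29.99 in replicate 2 (rank 1183), with summits 282 and 104 bp away. Both replicate summits lay past the end of daf-18 and so outside its window. The third (28.36) had a match in replicate 2 alone. The PI3 kinase gene age-1 had a single weak summit 205 bp upstream of a start (signal 28.33). Both replicates had an overlapping peak, with summits 127 bp away in replicate 1 (14.92) and 106 bp away in replicate 2 (14.78), so by the 100 bp rule it was matched in neither.

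**Figure D2:**
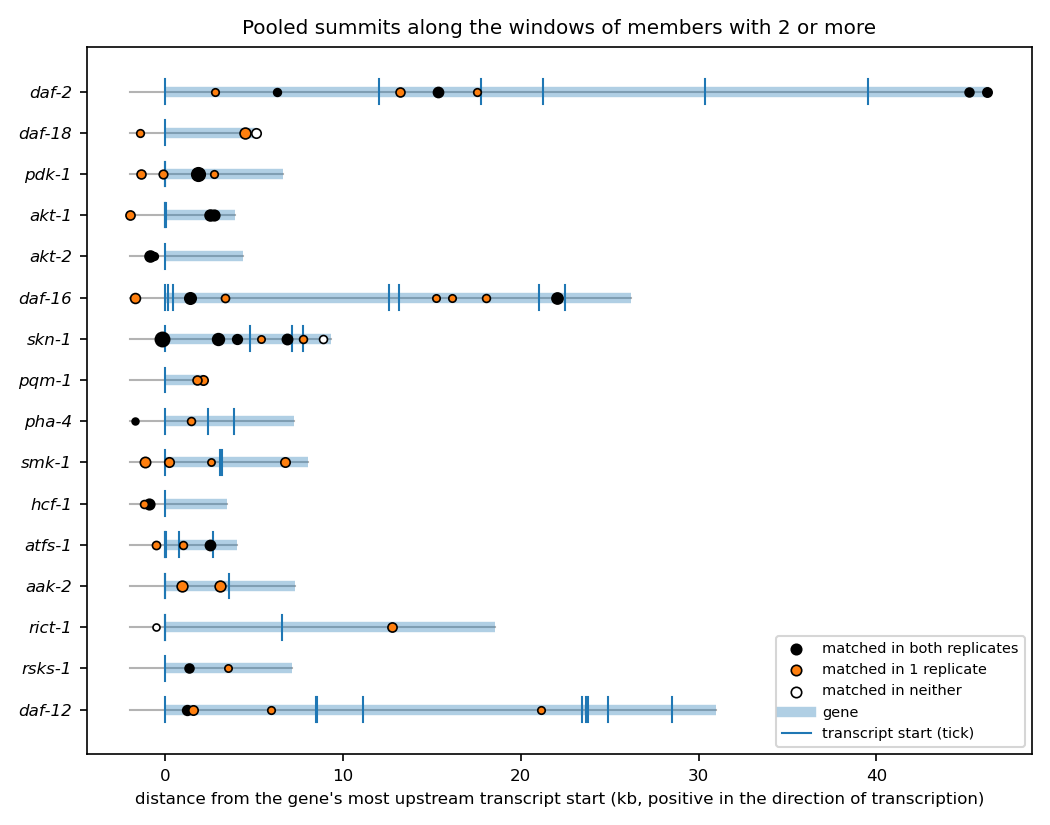
Pooled summits (circles, larger for stronger signal) along the windows of the 16 members with at least 2 of them, by distance in kb from the gene's most upstream transcript start. Thick blue bars are genes, blue ticks transcript starts and grey lines the windows, and black, orange and white circles are matched in both, 1 or neither replicate. The largest circle is that of skn-1, with a signal of 61.77, and daf-2, daf-16 and skn-1 have 7 summits each.

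Among the transcription factors and their cofactors, 9 of 10 had a pooled summit, against 48.1% of all genes. A summit matched in both replicates was found at 5 of them, against 20.6% of all genes. Their windows came to 94.65 kb together, and over all genes long windows held pooled summits more often. The strongest of all members was at skn-1 (WBGene00004804). SKN-1 is the worm's Nrf-type factor of the oxidative stress response. Its summit lay 180 bp upstream of the nearest start (IV 5660344 to 5660783), away from any small RNA gene by 4151 bp. The signal was 61.77 in the pooled list (rank 710), 21.71 in replicate 1 (rank 3614) and 35.09 in replicate 2 (rank 689). The lowest signal in the thresholded list was 67.65, so this peak fell short of it, and 3.55% of all genes had a stronger pooled summit. The next strongest skn-1 summits, in introns 1810, 297 and 759 bp upstream of internal starts, were also matched in both replicates. Their pooled signals were 46.56 (17.17 in replicate 1 and 28.98 in replicate 2), 39.05 (16.59 and 24.03) and 36.19 (16.30 and 24.24). All 4 ranked better in replicate 2, from 689 to 2778, than in replicate 1, from 3614 to 10329. The strongest skn-1 summit of replicate 1 was at another site, 942 bp downstream of a start, with a signal of 28.82 (rank 1153).

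The FOXO gene daf-16 (WBGene00000912) had 7 pooled summits, and the strongest ranked alike in the replicates. It lay in an intron 928 bp downstream of a start, with a pooled signal of 44.95 (rank 1877), 22.80 in replicate 1 (rank 2978) and 23.38 in replicate 2 (rank 3129). CACGTG lay within 100 bp of it. The next, in an intron 484 bp upstream of an internal start, had 43.36 (18.99 in replicate 1 and 22.89 in replicate 2). The other 5, from 27.62 to 37.44, each had a match in 1 replicate. A weak one of these (signal 27.76, matched in replicate 2) also had CACGTG.

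The remaining factors had weaker or less shared summits. At atfs-1, which encodes the factor of the mitochondrial unfolded protein response, the strongest of 3 lay in an intron 139 bp upstream of an internal start, with signals of 38.75 pooled, 13.23 in replicate 1 (rank 18492) and 25.14 in replicate 2 (rank 2295). At hcf-1, whose product is a host cell factor that restrains DAF-16, the stronger of 2 had 40.52 pooled (23.58 in replicate 1 and 16.29 in replicate 2), 922 bp upstream. A start of the neighbour swd-2.2 was nearer to it, at 786 bp. The gene of the DAF-16 cofactor SMK-1 had 4 summits from 27.01 to 39.72, each matched in 1 replicate. The strongest had 25.34 in replicate 1 (rank 1928), upstream of smk-1 and nearer to a start of vps-60, and a peak of replicate 2 (18.17) overlapped it with a summit 146 bp away. pqm-1 had 2 summits, of 33.37 and 35.32, matched in replicate 2 alone. This gene of a zinc finger factor had no summit at all in replicate 1. The FoxA gene pha-4 had 2 summits of 25.66 and 29.27, the weaker of them matched in both replicates at ranks of 19962 in replicate 1 and 21571 in replicate 2. The heat shock factor gene hsf-1 had 1 of 35.92, which a peak of replicate 2 (23.72, rank 2930) overlapped with its summit 129 bp away, and which no peak of replicate 1 overlapped. The deacetylase gene sir-2.1 had none in any list.

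A thresholded peak lay beside xbp-1 (WBGene00006959), the gene of the factor for the unfolded protein response of the endoplasmic reticulum. It spanned III 4195211 to 4195650 and overlapped the end of the gene, but its summit was 73 bp past the gene end and so outside the window. The signal was 70.74 pooled (rank 497), 41 in replicate 1 (rank 381) and 30.60 in replicate 2 (rank 1092). No small RNA gene lay near, and no CACGTG was within 100 bp. The nearest protein-coding start was that of xbp-1, 1610 bp away. When any overlap of a peak with the window was counted, xbp-1 was the 1 member with a thresholded peak, against 3.30% of all genes. Within the window, xbp-1 had 1 pooled summit in a coding exon (31.42, with a match of 26.15 in replicate 2 and an overlapping peak of 17 in replicate 1, summit 305 bp away). The other thresholded summit with a member as its nearest start lay 757 bp past the end of daf-12. The pooled signal there was 81.45 (49.63 in replicate 1 and 27.53 in replicate 2). It lay inside a tRNA gene, WBGene00014320, so it is counted with the small RNA genes.

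Of the 7 TOR and AMPK genes, with windows of 82.35 kb together, 5 had a pooled summit, against 48.1% of all genes. A summit matched in both replicates was found at 1, the S6 kinase gene rsks-1, against 20.6% of all genes. It lay in an intron, 1365 bp downstream of the start, with signals of 33.12 pooled, 19.72 in replicate 1 and 13.51 in replicate 2. The AMPK catalytic subunit gene aak-2 (WBGene00020142) had stronger summits, each with a summit within 100 bp in 1 replicate and an overlapping peak in the other. That with CACGTG, in an intron 936 bp downstream of a start, had 41.39 pooled and 29.94 in replicate 1 (rank 989), and the replicate 2 peak (15.49, rank 13403) had its summit 205 bp away. The other, 515 bp upstream of an internal start, had 41.60 pooled and 28.05 in replicate 2 (rank 1499), and the stronger replicate 1 peak (20.38, rank 4684) had its summit 167 bp away. The TOR kinase gene let-363 had a summit of 28.31 at 107 bp upstream of a start, and the Rag GTPase gene raga-1 one of 30.35. At rict-1, which encodes Rictor of TOR complex 2, the signals were 34.32 and 26.30. The Raptor gene daf-15 and crtc-1, which encodes a coactivator that AMPK regulates, had no pooled summit. Their summits in single replicates, up to 16.52 at daf-15 and 24.01 at crtc-1, had none within 100 bp in the other replicate, although a peak of each replicate overlapped at crtc-1.

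Of the 6 genes of nuclear receptors and steroid synthesis, 4 had a pooled summit, against 48.1% of all genes. A summit matched in both replicates was found at 1, against 20.6% of all genes. Their windows, 62.19 kb together, held 7 pooled summits, 4 of them at daf-12, from 27.89 to 36.61. The strongest, in an intron 1257 bp downstream of a start, was matched in both replicates but at low ranks, with 14.82 in replicate 1 (rank 13727) and 13.01 in replicate 2 (rank 20962). The cytochrome P450 gene daf-9 had 1 summit of 31.13, and the fat metabolism receptors nhr-80 and nhr-49 had 1 each, of 38.35 and 26.26. The oxygenase gene daf-36 had a summit in replicate 1 alone (14.94), and nhr-62 had none in any list. Of the 4 genes that act through germline, feeding or mitochondria, 3 had a pooled summit, against 48.1% of all genes. These were glp-1, eat-2 and clk-1, with 1 summit each, of 26.16, 26.98 and 31.55. Only that of glp-1 was matched in both replicates, against 20.6% of all genes with such a summit. GLP-1 is the Notch receptor of the germline, EAT-2 an acetylcholine receptor subunit of the pharynx and CLK-1 an enzyme of ubiquinone synthesis. kri-1, whose product relays the germline signal in the intestine, had single summits in each replicate (19.36 in replicate 1 and 14.40 in replicate 2), more than 100 bp apart in overlapping peaks.

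In all, 29 of the 36 genes had a pooled summit (80.6%, exact Clopper-Pearson 95% interval 63.98 to 91.81), against 48.1% of all protein-coding genes. Summits of replicate 1 lay at 30 members (83.3%), against 59.6% of all genes, and those of replicate 2 at 32 (88.9%), against 62.9%. A pooled summit matched in both replicates lay at 14 members (38.9%, 23.14 to 56.54), against 20.6% of all genes. When any overlap with a peak of each replicate was counted, a rule chosen after the values were seen, it was 22 members (61.1%), against 29.5%. With promoters alone, from 1000 bp upstream to 200 bp downstream of any start, 16 members (44.4%, 27.94 to 61.9) had a pooled summit, against 23% of all genes. Members have more promoter sequence, a median of 1423 bp against 1201 bp. Per 100 kb of promoter they held 25.81 pooled summits (exact Poisson 95% interval 15.98 to 39.46), against 18.19 for all genes. The density of all genes lies inside that interval. The intervals cover counting only, and no test was made of the set.

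The members' windows were long, with a median of 7928 bp against 4027 bp for all genes, and long windows held summits more often. Under 5 kb, 6 of 9 members (66.7%, 29.93 to 92.51) had a pooled summit, against 40.1% of all genes. From 5 to 10 kb it was 15 of 17 (88.2%, 63.56 to 98.54), against 59.7%, which lies below that interval. Over 10 kb it was 8 of 10 (80%, 44.39 to 97.48), against 81.3%. Per length, members held 69 pooled summits in 376.6 kb, or 18.32 per 100 kb (exact Poisson 95% interval 14.25 to 23.18), against 14.80 per 100 kb of all gene windows. At the density of all windows they would hold 55.75. The density over all windows lies inside the members' interval, so an excess per length over all members was not detectable. The length classes were chosen after the values were seen.

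**Figure D3:**
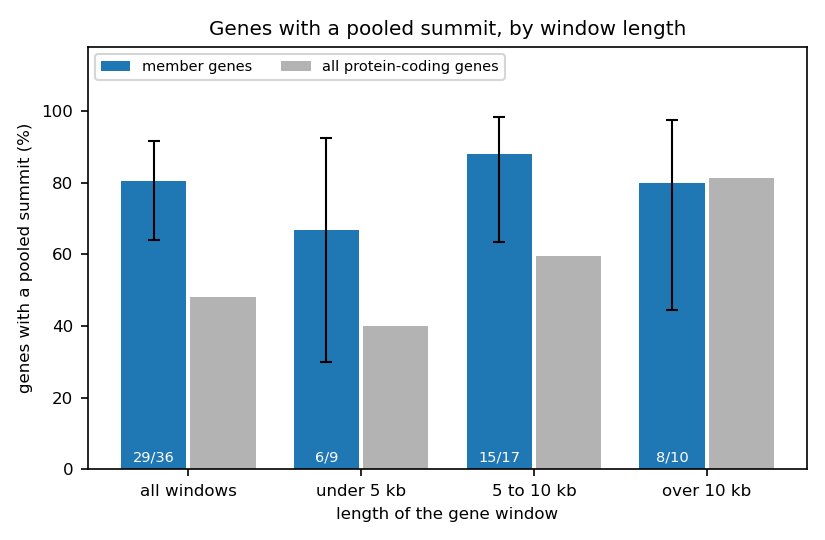
Share of genes with a pooled summit in the gene window, for member genes (blue, with exact 95% intervals and counts) and for all protein-coding genes (grey), over all windows and in 3 classes of window length. Members stand at 80.6% against 48.1% over all windows, and at 80% against 81.3% in windows over 10 kb.

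The 69 summits at members were ordinary entries of the pooled list. Their median signal was 32.92, against 31.68 for the 12088 nuclear pooled summits in any gene window. Both replicates matched 23 of the 69 (33.3%, against 30.8% of all in gene windows), 1 replicate matched 40 (58%, against 60.3%) and neither matched 6 (8.7%, against 8.84%). By overlap of peaks it was both for 39 (56.5%, against 53.3%), 1 for 29 (42%, against 44.7%) and neither for 1 (1.45%, against 2.01%), the summit at nhr-49. With ranks taken as a share of each replicate's list, 14 of the 23 stood higher in replicate 1 and 9 in replicate 2. Of the 23, 4 were among the strongest 5000 of both, at daf-16, pdk-1, skn-1 and daf-28. The same counts over all matched pooled summits are not given here, so whether these are unusual is not known. No member summit had a small RNA gene within 250 bp, which allows a share of up to 4.35% by the limit of 3 counts and up to 5.21% by the exact interval, against 4.67% of all. The share of all lies between these limits, so whether members differ was not settled. The closest stood 1068 bp away, at smk-1.

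**Figure D4:**
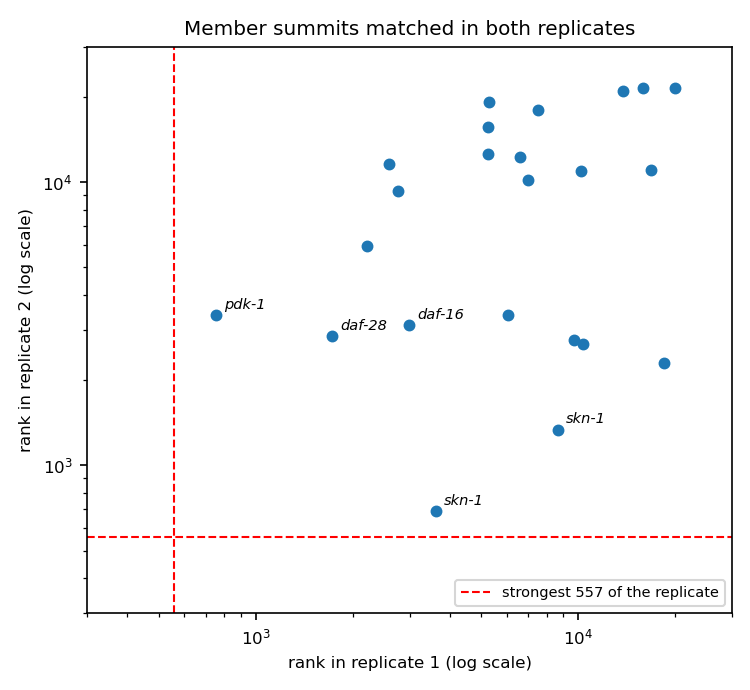
Ranks in replicate 1 (horizontal) and replicate 2 (vertical), both on log scales, of the 23 pooled member summits matched in both replicates, with rank 557 as dashed lines. Labels mark the 4 summits within the strongest 5000 of both and the second skn-1 summit. No point ranks within the strongest 557 of either replicate, and the labelled skn-1 points lie low on the vertical axis, where replicate 2 ranks them 689 and 1337.

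Introns held 33 of the member summits (47.8%, 35.65 to 60.20), against 28.6% of summits over all gene windows, and sequence upstream of the gene held 21 (30.4%, against 41.9%). Coding exons held 9 (13%, against 22.3%), 3'UTRs 6 (8.7%, against 5.16%) and 5'UTRs 0 (against 1.84%). The interval treats the 69 summits as independent, although daf-2, daf-16 and skn-1 held 7 each, most of them in introns. It may therefore be too narrow, as may every interval over member summits. Members are longer than most genes, and whether that accounts for the intron share was not tested. The nearest protein-coding start was the member's own for 57 of 69 (82.6%, against 67.4% of summits over all windows). The other 12 included all 3 at daf-18 and both at hcf-1 and at rict-1.

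CACGTG, the E-box that MXL-1 dimers bind, lay in the promoter windows of 13 of 36 members (36.1%, 20.82 to 53.78), against 21.4% of all genes. Several members have many starts and so more promoter sequence, a median of 1423 bp against 1201 bp, and per 10 kb they held 2.458 sites against 1.853. Of their 20 sites, which include 3 each at daf-16 and age-1, none lay within 100 bp of a pooled summit, against 5.29% of the 4855 sites in all promoters. The closest was at akt-2, 319 bp from a summit. With 20 sites and a share of 5.29% over all promoters, none is no result about the members' sites. Counted at summits, 3 of 69 (4.35%, 0.9058 to 12.18) had CACGTG within 100 bp, the 2 at daf-16 and the 1 at aak-2, against 5.14% of all pooled summits in gene windows. With 69 summits a difference of this size was not detectable.

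Related genes of the same pathways were counted in the same way, in 11 lists with 184 genes that are not members. The counts of the single lists add up to slightly less than this total. In the heat shock list, 10 of 14 symbols were counted and 2 were unmatched. Of these, 7 (3.8%) held a thresholded summit, against 2.71% of all genes, and 114 (62%) a pooled one, against 48.1%. Their windows had a median of 4346 bp. The 14-3-3 protein genes par-5 and ftt-2, whose products bind phosphorylated DAF-16, had signals of 86.50 (29.08 in replicate 1 and 53.60 in replicate 2) and 80.65 (43.56 and 37.54). The par-5 summit lay 169 bp upstream of par-5 and 113 bp from the start of M117.3, and that of ftt-2 lay 500 bp upstream. The Smad gene daf-14 of the TGF-beta dauer pathway had 74.01 (43.32 in replicate 1 and 26.05 in replicate 2), in an intron and with CACGTG within 100 bp. The genes of the chaperones CRT-1 and HSP-110 had 80.49 (34.39 and 44.78) and 82.32 (15.11 and 38.55). The DAF-12 corepressor gene din-1 had 69.89 (38.71 and 29.12) at a snoRNA gene, and eat-16, which encodes a regulator of G protein signalling, 69.20 (14.59 and 44.31). The hsp-110 and eat-16 peaks ranked 12963 and 14355 in replicate 1, against 511 and 346 in replicate 2. The lists of AMPK subunits, TOR regulators, germline longevity genes, targets of DAF-16 and SKN-1 and insulin-like peptides had no thresholded summit. Their strongest pooled ones were at aakg-1 (54.27), drr-2 (62.81), lipl-4 (56.49, at a tRNA gene), wdr-23 (55.69) and ins-17.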

How the data were processed

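ChIP-seq peak lists in narrowPeak format on ce11 were used, 1 for each replicate (20313 and 21882 peaks), 1 pooled (14200) and 1 thresholded (557). Per the deposited file descriptions, each was derived from the replicates' alignments and a control, and the thresholded list from the other 3 by a test of reproducibility. Which aligner and caller made them is not given in the sources used here. Signal values, as deposited, come without a scale and were ranked within each list only. Every one of the 550 nuclear thresholded summits was among the 557 strongest pooled peaks. Read totals were not used here, so depth is unknown, and intervals (95%) cover counting only.

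Members and lists were chosen with earlier results of these data known. Genes came from Ensembl release 115 and bases from RefSeq, both WBcel235, and no peak end exceeded its chromosome. Each summit was placed by windows of all protein-coding genes. Positions are 1-based. A summit can lie in several genes' windows, and position shares over all windows count it in each. All members are named, with values in every list for the 12 with the best pooled rank, and of the related genes those with a thresholded summit and the strongest pooled one of each list. Symbols not matched in the annotation were left out of the related lists. No test was made. The counting was checked on made-up summits. Python 3.11.15, numpy 2.4.6, scipy 1.17.1 and matplotlib 3.10.9 were used.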

Additional observations from a re-analysis of the deposited data

How the results depend on the processing

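Of 46 alternative values, 36 stayed close to the main one, which for counts of genes means within 1.5 times (for a count of 0, at 0) and for shares and densities within the main 95% interval. Members with a thresholded summit numbered 0 with windows from 500, 1000 or 5000 bp upstream, with promoters alone, in the stronger 278 peaks and in the strongest 557 peaks of either replicate alone (range 0 to 0). By nearest start they numbered 2, daf-12 and xbp-1 (2.49% of all genes), and 1 away from small RNA genes, xbp-1 (0.976%). In the 1114 strongest pooled peaks they numbered 2, pdk-1 and skn-1, also away from small RNA genes (5.65% and 3.77% of all genes). By overlap of the peak interval, chosen after seeing the data, the count was 1, xbp-1. Members with a pooled summit numbered 30 with replicate 1 alone (59.6% of all genes) and 32 with replicate 2 alone (62.9%). They numbered 16 with promoters alone (23% of all genes) and 19 in the stronger part of the list (29.3%). Those matched in both replicates numbered 7 with promoters alone (8.6% of all genes) and 22 by overlap of peaks, chosen after seeing the data (29.5%). Otherwise they numbered from 11 to 20, and the share of all genes ran from 14% to 29.6%. Pooled summits per 100 kb of promoter were 25.81 for members (exact Poisson interval 15.98 to 39.46), against 18.19 for all genes. The planned count of CACGTG in a RefSeq promoter table was not run.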
